A study of Mus musculus with 2 samples.

Results

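The nuclear genes that encode subunits of respiratory complexes I to IV were taken from 2 total RNA libraries of mouse embryonic midbrain. Members were the protein-coding genes outside the mitochondrial chromosome whose symbol is that of an Nduf A, B, C, S or V subunit (assembly factors left out), Sdha to Sdhd, a Uqcr gene, Cyc1, or a Cox4i, Cox5, Cox6, Cox7 or Cox8 subunit. They numbered 69 of 43346 gene entries, with 36 in complex I, 4 in complex II, 9 in complex III and 20 in complex IV. Ndufa4 and Ndufa4l2 carry complex I names but were placed in complex IV, where the Ndufa4 protein is known to reside.

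The series has 1 group, midbrain of B6NCrl embryos at 13.5 days, with pooled male and female tissue and no treatment or mutation named in the labels. It holds 2 biological replicates, each made from 10 ng of RNA longer than 200 nt. Replicate 2 held 41915240 expected reads and replicate 1 held 32151659. The libraries have separate biosample entries under the same donor entry, which does not say how the tissue was pooled, so their spread may be partly technical. With 1 group of 2 libraries no test between conditions exists, and an exact sign permutation over the libraries cannot give a p under 0.5. Levels are therefore given in each library, with means ± SD (n = 2), and no p-value is given. Marker lists, chosen with earlier results of these data known, describe the tissue and do not test it. All 6 neuron markers and all 6 progenitor markers had at least 1 TPM in each library. The same bar was passed by 60.2% of protein-coding genes outside the mitochondrial chromosome. The lists mark cell types and not a brain region. The neuronal tubulin gene Tubb3 had 1558 TPM in replicate 2 and 1679 TPM in replicate 1, and the radial glia gene Fabp7 had 1013 and 1130 TPM in the same order.

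The respiratory chain passes electrons from NADH (complex I) and succinate (complex II) through ubiquinone to complex III, then by cytochrome c to complex IV, which reduces oxygen. Complexes I, III and IV pump protons and draw some subunits from the mitochondrial genome, whereas complex II is wholly nuclear. Several complex IV subunits exist as paralogues, with one form used widely and others known from muscle, lung, testis or other restricted sites.

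The upstream sequences of paralogue pairs that lay far apart in level are shown here, because they differ in how often the dinucleotide CG occurs. They come from the RefSeq promoter table (GRCm38.p6), which held a window for 52 detected members. Capitals mark each CG, and each run is the 250 bases before the annotated start, 5′ to 3′ on the gene's strand. Cox8a lies at chr19:7217617-7217866 (minus strand) and Cox8b at chr7:140900447-140900696 (minus strand).
Cox8a: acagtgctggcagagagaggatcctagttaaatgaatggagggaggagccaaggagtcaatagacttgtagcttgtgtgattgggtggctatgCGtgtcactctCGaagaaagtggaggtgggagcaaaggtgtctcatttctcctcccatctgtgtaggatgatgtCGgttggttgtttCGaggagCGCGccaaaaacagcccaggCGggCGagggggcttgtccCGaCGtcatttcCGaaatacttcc
Cox8b: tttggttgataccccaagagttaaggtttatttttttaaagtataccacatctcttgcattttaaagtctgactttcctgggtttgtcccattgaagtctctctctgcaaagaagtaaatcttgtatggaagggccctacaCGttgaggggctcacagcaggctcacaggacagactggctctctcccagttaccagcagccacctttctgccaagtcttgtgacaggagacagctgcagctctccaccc
Cox7a2 lies at chr9:79759854-79760103 (minus strand) and Cox7a1 at chr7:30183921-30184170 (plus strand).
Cox7a2: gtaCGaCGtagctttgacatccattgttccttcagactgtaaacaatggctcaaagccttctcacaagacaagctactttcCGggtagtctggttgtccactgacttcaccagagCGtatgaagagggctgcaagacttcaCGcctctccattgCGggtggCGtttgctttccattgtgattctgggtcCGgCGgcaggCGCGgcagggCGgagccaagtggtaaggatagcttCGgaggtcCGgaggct
Cox7a1: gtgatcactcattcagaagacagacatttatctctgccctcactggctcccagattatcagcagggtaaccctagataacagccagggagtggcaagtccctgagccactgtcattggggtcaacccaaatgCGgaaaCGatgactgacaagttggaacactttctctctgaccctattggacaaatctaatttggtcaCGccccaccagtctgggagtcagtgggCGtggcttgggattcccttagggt
The full windows of 300 bases, which add 50 bases after the start, held 19 CG in Cox8a and 2 in Cox8b. They held 20 in Cox7a2 and 7 in Cox7a1, and 17 in Cox6b1 and 10 in Cox6b2. Cox7b went the other way, with 5 CG against 10 in Cox7b2. The median was 19 over the windows of detected members and 20 over those of detected protein-coding genes, so a window rich in CG was no trait of the subunit genes as such.

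Shared motifs were searched on both strands of the same windows. The NRF1 core GCGCANGCG, bound by a factor known to act on nuclear genes of the respiratory chain, occurred in 25.0% of the 52 members with a window, in 15.4% of detected protein-coding genes and in 7.03% of all genes with a window. The ETS core CCGGAAG occurred in 21.2%, 19.7% and 9.93% of the same sets, and the YY1 core AAGATGGCG in 9.62%, 3.54% and 1.64%. A match describes letters and not binding. The stretches below show an NRF1 match in capitals in 4 genes of complexes I, II and IV. They lie at chr4:123718260-123718300 for Ndufs5, chr13:74350271-74350311 for Sdha, chr9:50603904-50603944 for Sdhd and chr5:115349051-115349091 for Cox6a1, all on the minus strand.
Ndufs5: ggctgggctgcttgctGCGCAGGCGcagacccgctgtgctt
Sdha: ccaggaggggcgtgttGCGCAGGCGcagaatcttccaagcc
Sdhd: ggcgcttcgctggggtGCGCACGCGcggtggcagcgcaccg
Cox6a1: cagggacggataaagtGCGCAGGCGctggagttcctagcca

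Nearly all subunit genes were expressed in the midbrain, and most were abundant. TPM is a level per transcript length, scaled to a fixed total per library. That total includes spike-ins, which took 9.39% of it in replicate 2 and 5.36% in replicate 1, so SDs of TPM hold this difference of scale. A gene was called detected where neither library had a TPM under 1. By that rule 65 of 69 members were detected, against 60.2% of protein-coding genes outside the mitochondrial chromosome. The 4 others were Cox7b2, Cox6a2, Cox8b and Cox8c, all restricted paralogues of complex IV. A mean TPM of at least 100 was reached by 59 members, against 7.43% of protein-coding genes. Detected members had a median mean TPM of 288, and detected protein-coding genes one of 19.7. The 69 genes together took 2.24% of gene TPM in replicate 2 and 2.26% in replicate 1.

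**Figure D1:**
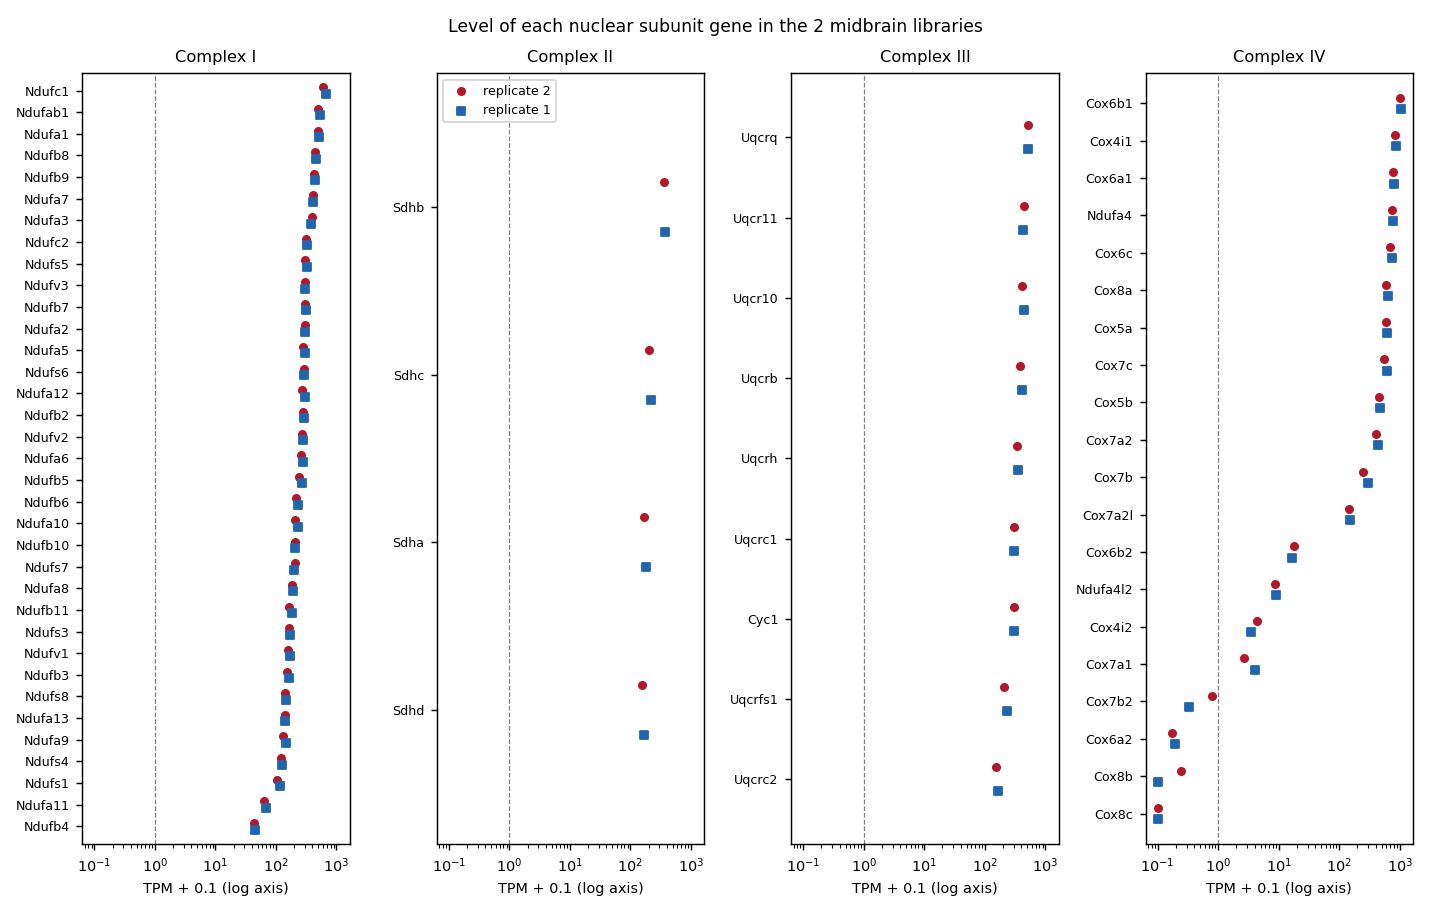
TPM + 0.1 on a log axis of 68 members in each library, by complex (circles replicate 2, squares replicate 1), with a dashed line at 1. Complexes I to III stay above 40, and complex IV splits into 12 genes above 100 and 8 below 20.

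Complex I oxidises NADH and is the largest of the chain. All 36 of its nuclear members were detected, and their median TPM was 250 in replicate 2 and 276 in replicate 1. The 7 core subunits carry the flavin, the iron-sulfur clusters and the ubiquinone site. Their median was 165 and 173 TPM in the same order, below the 282 and 296 TPM of the 29 accessory subunits. The difference of median log2(TPM + 0.1), core minus accessory, was -0.77 ± 0.002 (SD, n = 2). Spearman's rank correlation between effective length and TPM was -0.80 over the 36 members, and the part of length in this difference was not tested.

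Among the core subunits, Ndufv2, an iron-sulfur protein of the NADH-oxidising tip, had 270 TPM in replicate 2 and 282 TPM in replicate 1. Its partner Ndufv1, which binds NADH and the flavin, had 159 and 172 TPM. Ndufs1, the large iron-sulfur subunit of the same tip, was the lowest of the 7 with 104 and 116 TPM. These values span 2.50-fold from the highest to the lowest core gene.

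The subunits that lead electrons to ubiquinone lay between Ndufv2 and Ndufs1. Ndufs7, which holds the last cluster of the path, had 207 and 200 TPM in replicates 2 and 1. Ndufs3 had 165 and 173 TPM and Ndufs8 141 and 147 TPM. Ndufs3 (169 ± 5.54 TPM) and Ndufv1 (165 ± 8.98 TPM) overlapped between the libraries, and the other core genes named here did not overlap with each other. Within each library Ndufs3 was the higher, at 165 against 159 TPM in replicate 2 and 173 against 172 TPM in replicate 1.

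Accessory subunits surround the core. By gene TPM Ndufc1 was the highest of complex I, with 604 TPM in replicate 2 and 684 TPM in replicate 1. Ndufab1, the mitochondrial acyl carrier protein, followed with 499 and 544 TPM, and Ndufa1, a small membrane-arm subunit, with 488 and 524 TPM. Ndufb8 averaged 445 ± 12.9 TPM, Ndufb9 434 ± 8.80 TPM and Ndufa7 405 ± 0.219 TPM. The order of the first 3 by gene TPM was the same in both libraries, but it did not hold for protein-coding transcripts alone. These took 52.1% of the TPM of Ndufc1 and 49.2% of that of Ndufab1 on average. They gave Ndufc1 316 TPM in replicate 2 and 354 TPM in replicate 1. Ndufa1 stayed above it at 488 and 524 TPM, but it has only 1 annotated transcript, which fixes its coding share. Ndufc1 has 4 annotated transcripts and Ndufab1 has 10, so the change of order depends on the annotation.

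At the low end, Ndufs4, whose loss in mice is used as a model of Leigh syndrome, averaged 123 ± 3.08 TPM, and Ndufa9 averaged 141 ± 10.5 TPM. Ndufa11 had 64.1 and 67.6 TPM in replicates 2 and 1. Its single transcript is 2661 bases long in the deposited table and 545 bases long in GENCODE M21, so its level per length depends on the gene model: with the shorter length its mean would be 378 TPM in place of 65.9. Ndufb4, a membrane-arm subunit, was the lowest, with 43.0 and 45.7 TPM.

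The value of Ndufb4 shares reads with a copy. A processed pseudogene, Ndufb4c (chr15:73809507-73809896, minus strand), is identical to the Ndufb4 transcript over 390 of 390 bases. It was assigned 2162 reads in replicate 2 and 1625 in replicate 1, against 598 and 451 reads on Ndufb4 itself, or 361% and 360% of them. Reads from the identical stretch cannot be placed, so the level of Ndufb4 is uncertain.

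Complex II, succinate dehydrogenase, had the lowest median, 186 TPM in replicate 2 and 202 TPM in replicate 1. Sdhb, the iron-sulfur subunit, stood above the rest with 357 and 380 TPM. Sdhc and Sdhd anchor the enzyme in the membrane; Sdhc had 200 and 220 TPM and Sdhd 157 and 166 TPM. Sdha, the flavoprotein that oxidises succinate, had 171 and 184 TPM. Sdhb averaged 2.28 times Sdhd, a gap wider than the spread of either gene, whereas Sdha (177 ± 9.02 TPM) and Sdhd (161 ± 6.32 TPM) lay closer.

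Complex III passes electrons from ubiquinol to cytochrome c. Its 9 nuclear members had medians of 343 TPM in replicate 2 and 356 TPM in replicate 1 and spanned 3.29-fold. Its small subunits were the highest. Uqcrq had 523 and 525 TPM, Uqcr11 averaged 436 ± 16.3 TPM, Uqcr10 429 ± 26.7 TPM, Uqcrb 403 ± 21.4 TPM and Uqcrh, the hinge protein, 350 ± 8.84 TPM. The values of Uqcr11 and Uqcr10 overlapped between the libraries and changed order. Those of Uqcr10 and Uqcrb overlapped too, with Uqcr10 the higher within each library.

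The catalytic and core proteins of complex III were lower. Cyc1, the cytochrome c1 haem protein, had 299 TPM in both replicates, and Uqcrc1, a core protein, had 299.9 and 299.5 TPM. Uqcrfs1, the Rieske iron-sulfur protein, had 209 and 232 TPM. Uqcrc2, the other core protein, was the lowest with 155 and 163 TPM. The part of transcript length in this order was not tested.

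Complex IV, cytochrome c oxidase, had the highest median, 499 TPM in replicate 2 and 539 TPM in replicate 1 over its 16 detected members. With its 4 undetected members included, the median was 348 TPM on average, just under the 350 TPM of complex III, so its first place holds for detected members only. Relative to complex I, the difference of median log2(TPM + 0.1) was 0.97 ± 0.03 for complex IV, 0.41 ± 0.06 for complex III and -0.44 ± 0.02 for complex II (SD, n = 2). The place of complex IV depended on the summary: by mean TPM of detected members it was again the highest, at 454 TPM against 347 for complex III, 265 for complex I and 229 for complex II, but by the mean of log2 values its difference from complex I was -0.36. Its 4 detected members with the lowest levels, Cox6b2, Ndufa4l2, Cox4i2 and Cox7a1, had mean TPM from 17.1 to 3.25 and entered each of these measures.

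The 5 highest genes of the whole set belonged to complex IV. Cox6b1, which lies on the intermembrane side, had 1012 TPM in replicate 2 and 1050 TPM in replicate 1. Cox4i1, the regulatory subunit bound by ATP, had 834 and 866 TPM, and Cox6a1 had 762 and 797 TPM. Ndufa4 averaged 754 ± 26.1 TPM and Cox6c 715 ± 46.3 TPM. Cox8a (615 ± 32.3 TPM), Cox5a (610 ± 21.8 TPM) and Cox7c (577 ± 43.2 TPM) followed with overlapping values. Cox5b averaged 461 ± 13.4 TPM, Cox7a2 427 ± 24.8 TPM and Cox7b 270 ± 33.2 TPM.

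Cox7c also has an identical copy. Gm12338, a processed pseudogene at chr11:75599763-75599954 (minus strand), matches it over 192 of 192 bases and held 1546 reads in replicate 2 and 1268 in replicate 1, or 27.4% and 25.4% of the reads of Cox7c. In TPM this short copy had 622 and 680, above Cox7c at 547 and 608, so the level of Cox7c is uncertain too. Relatives of at least 85% identity over at least 150 bases numbered 48, for 29 members, and only 2 of them, Ndufb4c and Gm12338, held over 10% of their member's reads in both libraries. Exons of 19 members overlapped those of a gene on the opposite strand, and for 9 of these members the partner had at least 10% of the member's TPM. Among these 9 is Cox6a2, where both genes were near 0 (mean 0.08 TPM, and 0.07 and 0.04 TPM for its partner Itgad). Shares of all protein-coding genes with such copies or overlaps are not given here, so these counts mark no trait of the subunit genes.

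In each of the 9 paralogue pairs the first-named, widespread form was the higher one in both libraries. Ratios are given on the log2(TPM + 0.1) scale, which understates the gap of genes near 0, and as ratios of reads per length with exact 95% intervals that cover counting error only. In bulk tissue, few cells with much RNA and many cells with little cannot be told apart.

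**Figure D2:**
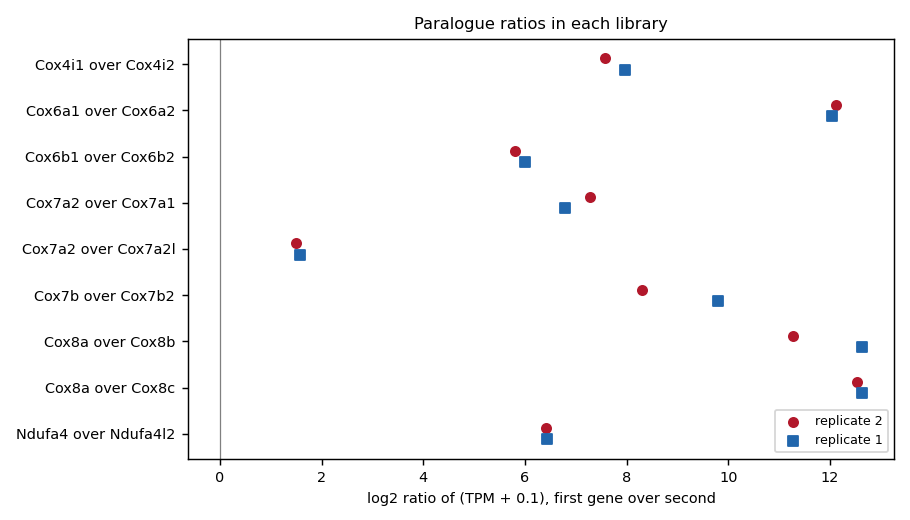
Log2 ratio of (TPM + 0.1), widespread gene over its paralogue, in each library (circles replicate 2, squares replicate 1). All values are above 0, and Cox7a2 over Cox7a2l is the smallest at 1.48 and 1.57.

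Cox4i2 replaces Cox4i1 in lung and in low oxygen. It had 4.28 TPM in replicate 2 and 3.34 TPM in replicate 1, on 72 and 42 reads. Cox4i1 over Cox4i2 was 7.77 ± 0.28, a per-length ratio of 219 (182 to 265). Ndufa4l2, a hypoxia-induced relative of Ndufa4, had 8.51 and 8.87 TPM, and Ndufa4 over Ndufa4l2 was 6.42 ± 0.008, a ratio of 86.7 (77.9 to 96.7). Ndufa4l2 shares 32 exonic bases with Shmt2 on the opposite strand, which had 34.9 TPM in both replicates, and no source used here states whether reads were counted by strand.

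Both genes are known from pericytes, cells of the vessel wall. All 9 pericyte markers were detected, with a summed level of 155 TPM in replicate 2 and 135 TPM in replicate 1, led by Vtn (109 and 89.6 TPM) and Pdgfrb (mean 11.1 ± 0.071 TPM). Without Vtn the other 8 summed to 46.7 TPM in replicate 2 and 45.4 TPM in replicate 1. The fold of Cox4i2, replicate 2 over replicate 1, was 1.32 with a counting interval of 0.895 to 1.99, which includes 1, and that of Ndufa4l2 was 0.991 (0.798 to 1.23). The part of pericytes in their levels was not tested.

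The muscle forms were near the floor. Cox7a1 had 2.54 TPM in replicate 2 and 3.95 TPM in replicate 1, on 18 and 21 reads, and Cox7a2 over Cox7a1 was 7.03 ± 0.35, a ratio of 135 (98.7 to 190). Cox6a2 had 1 read in each library, and Cox6a1 over Cox6a2 was 12.08 ± 0.07, with a per-length interval of 2812 to 83907. Cox8b had 1 read in replicate 2 and none in replicate 1, so its ratio (11.95 ± 0.97) depends on the pseudocount.

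Of 12 muscle markers 2 were detected, Mylpf (4.21 and 6.31 TPM) and Acta1 (1.85 and 2.58 TPM), and the list summed to 9.22 TPM in replicate 2 and 15.3 TPM in replicate 1. After scaling, the log2 ratio of Mylpf was -0.0016 (75 and 58 reads), that of Acta1 -0.43 (66 and 69 reads) and that of Actc1 -2.02 (29 and 92 reads). Of 7 muscle markers averaging 10 reads or more, 6 were lower in replicate 2, against 47.8% of protein-coding genes. Their median log2 ratio was -0.19. The fold of Cox7a1, replicate 2 over replicate 1, was 0.666 with a counting interval of 0.333 to 1.31, which includes 1. The part of muscle RNA in its level was not tested.

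The forms known from testis were low as well. Cox6b2 was the exception among restricted paralogues, with 17.9 TPM in replicate 2 and 16.2 TPM in replicate 1, on 196 and 132 reads. Cox6b1 over Cox6b2 was 5.91 ± 0.14, a ratio of 59.8 (53.6 to 66.9). Cox7b2 had 8 and 2 reads, and Cox7b over Cox7b2 was 9.05 ± 1.06. Cox8c had no read in either library, so that Cox8a was at least 1606-fold higher at a floor of 3 counts per library. None of 8 germ cell markers was detected, 3 of them were listed at 0 in both libraries, and the highest, Ddx4 (0.69 and 0.82 TPM) and Sycp3 (0.24 and 0.14 TPM), were under 1 TPM.

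Cox7a2l, which is known to link complexes III and IV into supercomplexes, was the paralogue closest to its partner. It had 146 TPM in replicate 2 and 149 TPM in replicate 1, and Cox7a2 over Cox7a2l was 1.53 ± 0.06, a ratio of 2.88 (2.79 to 2.96).

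Short transcripts tended to have the higher levels. Over the 65 detected members, Spearman's rank correlation between effective length and TPM was -0.60, against -0.28 over 12916 detected protein-coding genes. Pearson's r of the log2 values was -0.23 for these members and -0.29 for protein-coding genes, so the order of the 2 sets depended on the measure. Without the 4 detected members under 40 TPM, over the other 61, the rank correlation was -0.74. The coefficient was -0.80 in complex I and -0.88 in complex III (n = 36 and 9), and -0.20 over the 16 detected members of complex IV. These are correlations across genes of the same libraries, given as descriptions. Reads per gene followed length weakly (0.29 over the same 61 members), and TPM divides by length, which ties the 2 measures.

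**Figure D3:**
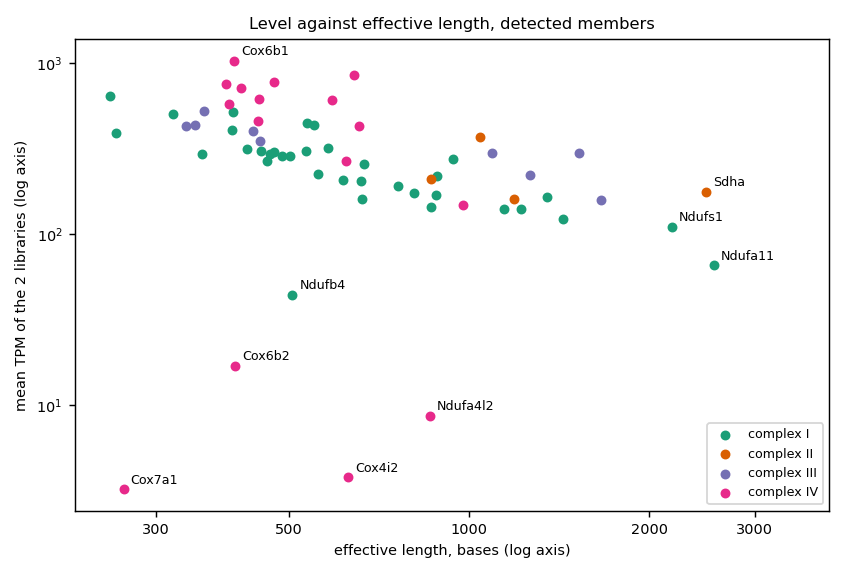
Mean TPM of the 2 libraries against effective length in bases for 64 detected members, both on log axes, coloured by complex. Ndufb4 and 4 restricted paralogues lie below the band of the other genes.

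Most members were read as coding transcripts. Transcripts annotated as protein-coding took 89.2% of member TPM in replicate 2 and 89.2% in replicate 1. Processed transcripts took 5.52% and 5.42%, and retained introns 4.61% and 4.81%. The coding share was at least 90% in 45 of 65 detected members and under 50% in 6, which were Ndufa5, Ndufa10, Ndufb4, Cox5b, Cox7b and Ndufab1. In 22 of the 65 only 1 transcript is annotated, which fixes the share. No such count over all protein-coding genes is given here, so these counts mark no trait of the subunit genes.

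The leading transcript was of a non-coding type in both libraries in 4 of 65 detected members, against 6.08% of detected protein-coding genes, a like share. These shares are of TPM, which weighs short transcripts more than reads do. By share of reads, a non-coding type led in both libraries in 1 member only, Ndufa5. For Ndufa5 a processed transcript took 88.5% of the gene's TPM in replicate 2 and 89.5% in replicate 1. For Cox5b a processed transcript took 59.9% and 61.9%, with the main coding transcript at 35.4% and 32.5%. By reads the order was reversed, with 34.8% and 37.2% on the processed transcript and 59.9% and 56.9% on the coding one. Retained introns led Ndufb4 (69.5% and 74.9%) and Ndufa10 (28.5% and 26.6%) by TPM. By reads the Ndufa10 retained intron took 19.2% and 19.3%, below the coding transcript at 36.3% and 33.6%. That of Ndufb4 took 48.9% of reads in replicate 2 and 55.6% in replicate 1, and these shares leave out the reads assigned to the identical copy Ndufb4c.

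The lead by TPM was the same in both libraries for 64 of 65 members. In 22 of them only 1 transcript is annotated, so no change was possible. The share over all protein-coding genes is not given here, so this agreement marks no trait of the subunit genes. Among the 43 members with more transcripts the lead was the same in 42. The exception was Cox7b, where the coding transcript took 51.3% in replicate 2 and 43.6% in replicate 1, and the leading retained-intron transcript took 44.2% and 44.4%. By reads the coding transcript of Cox7b led in both libraries, with 70.6% and 66.4% against 28.8% and 32.0%, so the change of lead rests on the TPM scale. Ndufv3, which is known to be made in a short and a long form, was mostly the short one, a transcript of 485 bases that took 93.5% and 93.0%. The long transcript of 1537 bases took 5.97% and 5.84% of TPM. By share of reads the short one took 80.1% on average.

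**Figure D4:**
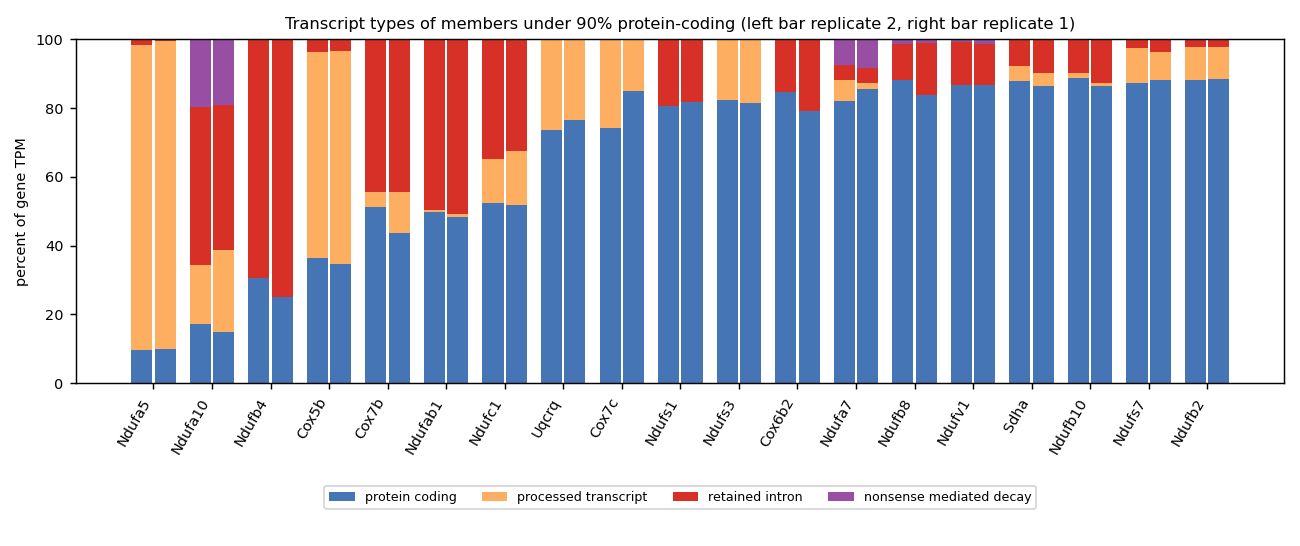
Percent of gene TPM by transcript type for 19 detected members under 90% protein-coding, with the left bar of each gene for replicate 2 and the right bar for replicate 1. Ndufa5 is almost wholly a processed transcript in both bars, and the paired bars are close for most genes.

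The subunit genes differed little between the libraries. After scaling (TMM on rounded expected counts), none of the 64 members averaging 50 reads or more was 2-fold apart, against 0.589% of protein-coding genes. With 64 genes that background amounts to less than 1 gene, so nothing particular can be read from it. The median size of the log2 ratio was 0.035 for members and 0.096 for protein-coding genes. Members had high counts, from 2463 to 8107 reads between the 10th and 90th percentiles of detected members, against 151 to 5528 for detected protein-coding genes, and the part of depth in the narrower spread was not tested.

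**Figure D5:**
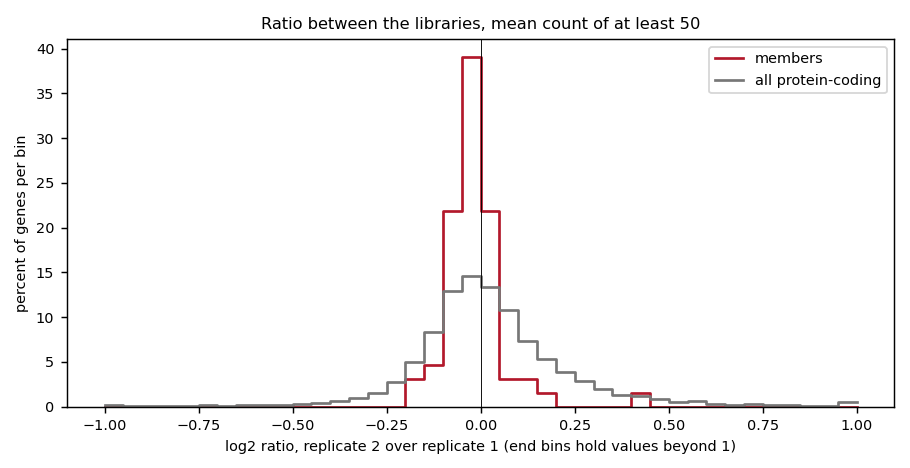
Percent of genes per bin of the log2 ratio of replicate 2 over replicate 1, for members (red) and all protein-coding genes (grey) averaging 50 reads or more. Of the members, 39.1% fall in the bin just below 0, and Cox4i2 stands alone at 0.40.

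Among members averaging 50 reads or more, the largest ratios, replicate 2 over replicate 1, were Cox4i2 at 0.40 on the log2 scale (72 and 42 reads), Cox6b2 at 0.20 (196 and 132 reads) and Uqcr11 at 0.13. In the other direction Cox7c was at -0.20 and Ndufc1 at -0.16. Below that count, Cox7a1 was at -0.59 on 18 and 21 reads. Of the 65 members averaging 10 reads or more, 45 were lower in replicate 2, against 47.8% of protein-coding genes. The shift was small: their median log2 ratio was -0.015, against 0.009 for all. These ratios were made from gene entries only, so spike-ins do not enter them. The spike-in share of TPM was 9.39% in replicate 2 and 5.36% in replicate 1. Spike-ins enter the total to which deposited TPM is scaled, so TPM levels and their SDs hold this difference.

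Other genes of the pathway gave the setting. Complex V, the ATP synthase, had 16 of 16 measured genes detected, with a median mean TPM of 509, led by Atp5b (1584 and 1669 TPM), the catalytic beta subunit, and Atpif1 (1038 and 1130 TPM), its inhibitor. Its lowest gene was Atp5g2 (138 and 140 TPM). The 11 mitochondrially encoded subunits of complexes I, III and IV had medians of 1214 TPM in replicate 2 and 1088 TPM in replicate 1, led by mt-Cytb (2720 and 3021 TPM) and mt-Co1 (2464 and 2806 TPM), with mt-Nd4l (81.1 and 62.0 TPM) the lowest.

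Assembly factors had lower median levels than the subunits of their complex. Not each factor lay below each subunit, as Uqcc2 was above the subunit Uqcrc2 (155 and 163 TPM in replicates 2 and 1). The factors of complex I were all detected (15 of 15, median 33.5 TPM). Ndufaf3 (58.0 and 65.2 TPM) and Ndufaf2 (62.7 and 60.5 TPM) were highest and Nubpl (7.49 and 8.37 TPM) lowest. Those of complex II were detected in 4 of 4 (median 20.6 TPM; Sdhaf4 82.6 and 91.6 TPM, Sdhaf2 23.7 and 24.8 TPM, Sdhaf3 5.54 and 6.97 TPM). Those of complex III were detected in 6 of 6 (median 37.4 TPM), with Uqcc2 at 278 and 309 TPM, Uqcc3 at 51.4 and 57.9 TPM and Lyrm7 at 7.76 and 9.81 TPM. Those of complex IV were detected in 17 of 18 (median 35.0 TPM), with Coa3 at 165 and 174 TPM, Cox14 at 139 and 136 TPM and Pet117 at 0.37 and 0.95 TPM.

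Of 12 genes for cytochrome c or for ubiquinone synthesis, 11 were detected. Coq7, an enzyme of ubiquinone synthesis, had 76.2 and 89.7 TPM and Cycs, the somatic cytochrome c, 52.1 and 61.0 TPM. Cyct, the testis cytochrome c, had no read in replicate 2 and 1 read in replicate 1. Of 14 regulators 13 were detected. Chchd2 was the highest (701 and 758 TPM), followed by Hif1a (66.3 and 68.2 TPM), and Ppargc1b, a coactivator of mitochondrial genes, was the lowest with 0.99 and 1.21 TPM.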

How the data were processed

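Per library, the authors deposited gene and transcript tables on mm10 and GENCODE M4, as the accompanying text states. Deposited expected counts are reads divided among genes by estimation, so they can be fractional, and the columns are named as in RSEM. The deposited TPM values are scaled to 1 fixed total over all entries, spike-ins included, and the deposited FPKM values to length and aligned reads. The deposited percent values give each transcript's share of its gene. For the aligner, its version and the strand setting, nothing is stated in the sources used here. No member with a mean count of at least 50 had a deposited posterior SD of its count over 10% of the mean (largest 3.15%).

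Names, types and positions came from GENCODE M21 (GRCm38), matched on identifiers without versions (42462 matched, 884 did not). Expected counts were rounded and scaled by TMM in edgeR 4.0.16 (R 4.3.3), with DESeq2 1.42.0 size factors as an alternative; ratios used a prior of 0.5 reads. The ratio step was tested on simulated data. Copies were sought with BLAST 2.17.0, and other steps used Python 3.11.15, pandas 2.3.3 and scipy 1.17.1. Members and gene lists were chosen with earlier results of these data known. Genes named were all members of complexes II to IV and of paralogue pairs, core subunits (1 is not reported here), the 6 highest and 4 lowest accessory subunits, the 5 largest ratios, the highest and lowest list genes, and members with an unusual leading transcript. Alternatives changed the level minimum, unit, pseudocount, scaling, filter, averaging and library used. Intervals cover counting error only.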

Additional observations from a re-analysis of the deposited data

Results flagged for a closer look

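Reads on processed pseudogenes that copy a member lie outside the comparisons of subunit genes, and 4 such copies had a mean of at least 50 reads and over 3 reads in both libraries. Ndufb4c, a copy of Ndufb4, held 2161.7 reads in replicate 2 and 1625 reads in replicate 1. Gm12338, a copy of Cox7c, held 1545.6 and 1268.3 reads in the same order. Gm4459, a copy of Ndufab1 (99.7% identity over 381 bases), held 348.8 and 370.98 reads. Gm10012, a second copy of Cox7c, held 38.63 and 61.93 reads. How much of this comes from the division of shared reads was not tested.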

How the results depend on the processing

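Across 175 alternatives for 30 results, 124 stayed within a set margin, 50 moved past it, and 1 reversed. The margin was the spread between the libraries, or a fixed fold for counts. Where that spread is the SD of the 2 libraries, a single library always lies within it. The setting of at least 1 TPM for both genes repeated the main value. Those settings could not move, so the tally overstates how stable the results were. The detected count was 65 under every alternative tried, and all 68 alternative values of the paralogue ratios were above 0. Using the mean of log2 values turned complex IV minus complex I to -0.36, and gave -0.51 for core minus accessory, -0.093 for complex II and 0.50 for complex III relative to complex I. Core minus accessory was -0.77 with posterior mean TPM and -0.77 with a pseudocount of 1. Median levels of complexes I, II, III and IV were 166, 122, 220 and 327 in FPKM, and 284, 209, 377 and 560 with TPM rescaled to genes. The mean in place of the median gave 229 for complex II and 454 for complex IV, and undetected members lowered complex IV to 348, under complex III. Shares of reads in place of TPM moved the leading transcripts of Cox5b to 35.99%, Ndufa10 to 19.2%, Ndufb4 to 52.2% and Cox7b to 68.5%. They moved those of Ndufv3 to 80.1%, Ndufa5 to 87.9%, Cox7c to 79.1%, Ndufab1 to 39.9% and Ndufc1 to 43.7%. Protein-coding transcripts only, chosen after seeing the data, gave 234, 332 and 444 for complexes I, III and IV, and paralogue ratios of 6.20 for Cox6b1 and 7.97 for Cox7b (over Cox7b2).

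A pseudocount of 1 gave ratios of 7.47 for Cox4i1, 9.50 for Cox6a1, 6.68 for Cox7a2 over Cox7a1, 7.55 for Cox7b, 9.17 for Cox8a over Cox8b, 9.27 for Cox8a over Cox8c and 6.28 for Ndufa4. A pseudocount of 0.01 gave 13.09 for Cox6a1, 13.95 and 15.91 for Cox8a over Cox8b and Cox8c, and 6.44 for Ndufa4. FPKM gave 11.68 for Cox6a1, 11.92 for Cox8a over Cox8c and 6.41 for Ndufa4, and posterior mean TPM 11.58, 11.45 and 6.41 for the same, with 10.84 for Cox8a over Cox8b. With no count minimum 2 members, Cox7b2 and Cox8b, were at least 2-fold apart, on at most 8 reads each. Except for the pseudocount and averaging, the cause was not tested.

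Single libraries gave 65 detected members. Medians ranged from 250 to 276 in complex I, 186 to 202 in II, 343 to 356 in III and 499 to 539 in IV. Differences of medians ranged from -0.78 to -0.77 (core), -0.46 to -0.43 (II), 0.37 to 0.46 (III) and 0.95 to 0.99 (IV). No paired analysis was possible because the series has 1 group. Paralogues with under 10 reads are limited by depth, and pairs with a gene under 1 TPM gave no value under that minimum.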
